A study of Homo sapiens with 18 samples.

Results

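HEK293doxERN2 cells are a human embryonic kidney line (HEK293) that carries a Flag-tagged human ERN2 transgene under the control of doxycycline. The comparison described here set 3 libraries of cells given 100 ng/mL doxycycline for 24 hours (high ERN2) against 3 libraries of cells given no doxycycline (no ERN2). All 6 came from cells that also received 200 nM thapsigargin for 3 hours, and they are 6 of the 18 libraries of the series. They were chosen by their sample titles, with no measured value, and every gene tested between them is a member. The other libraries came from cells given vehicle (DMSO) for 3 hours or doxycycline at 10 ng/mL (low ERN2), and they are used only for reference. A single engineered line was used, and the labels do not say whether it is 1 clone or whether the 3 libraries of a group came from separate cultures, so p-values measure the spread between these samples, which may be technical. Doxycycline was given to all cells with high ERN2 and to none without, so the drug and the transgene cannot be told apart.

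ERN2 (IRE1β) is the paralog of the ubiquitous stress sensor ERN1 (IRE1α) and is normally made in the mucous epithelia of the gut and airways. Both proteins sit in the membrane of the endoplasmic reticulum (ER) and carry a kinase and an endonuclease on the cytosolic side. The endonuclease of IRE1 cuts XBP1 mRNA at a pair of stem-loops, which starts the splicing that yields the transcription factor XBP1s, and it can also degrade mRNAs at the ER membrane, a process named regulated IRE1-dependent decay (RIDD). The unfolded protein response (UPR) has further arms, ATF6, which induces ER chaperones, and PERK, which acts through ATF4 and DDIT3 (CHOP). Thapsigargin blocks the calcium pump of the ER and thereby sets off all of them.

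The 6 libraries held 14876416 to 20923608 reads assigned to genes. Levels are given as CPM, the counts of a gene relative to the total of its library, scaled by TMM over all 18 libraries. The deviation of a library from the mean of the 18 was ranked against the GC content of the genes, over 13945 genes that are not independent. The rank correlation was -0.14, -0.23 and 0.36 in the 3 libraries without ERN2, 0.17 in the first library with high ERN2, and -0.47 and -0.69 in the other two. Because these last libraries were low in GC-rich genes, counts that moved by over 1.5 times are mostly also given from a further fit. Some come from a fit with the trend on GC content and length removed. Others come from a fit without the first library with high ERN2. That fit keeps only the high ERN2 libraries that were low in GC-rich genes, so it does not lessen the trend and is no check on it. The extraction label of the samples names colon crypt epithelial cells, whereas the cell line label names HEK293. Of 12 colon epithelial markers only 4 passed the filter on low counts, and the summed level of the list was 14.5 to 27.5 CPM in the 6 libraries. The 4 were EPCAM, CDX2, CDH1 and SPDEF. They averaged 12.9, 7.10, 3.81 and 0.58 CPM without ERN2 and 12.2, 4.10, 0.96 and 0.56 CPM with high ERN2. In the group with high ERN2 MUC2 averaged 0.05 CPM while TFF3 and CDX1 were at 0. All 10 markers of HEK293 cells passed, with a summed level of 1688 to 2418 CPM. In bulk RNA, fewer cells of a kind and less RNA per cell cannot be told apart.

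ERN2 itself was measured first, since it is the targeted gene (chromosome 16, 23690326 to 23713500, minus strand, GRCh38). Its level was 14.2, 10.35 and 12.0 CPM in the 3 libraries without doxycycline, and 272, 175 and 175 CPM in the 3 libraries with it. The groups did not overlap, and the log2 fold change was 4.08 ± 0.22 (SE, n = 3 per group; adjusted p = 5.11e-07 by edgeR's quasi-likelihood test with Benjamini-Hochberg adjustment, as for every adjusted p below). Reads of the transgene and of the endogenous gene are summed in 1 row of the count table. In cells at 10 ng/mL doxycycline with thapsigargin ERN2 stood between the groups, at 32.1, 53.9 and 111.5 CPM.

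XBP1, the substrate whose mRNA the endonuclease cuts, and ERN1 were both lower in thapsigargin-treated cells with high ERN2. The part of the unspliced XBP1 coding sequence that holds the cut sites, and the corresponding loop of BLOC1S1, a widely used RIDD substrate, are shown because all of them have the loop of 7 bases that IRE1 cuts, written CNGCAGN. The capitals mark that loop, the 10 bases on each side are in lower case, and at least 5 of them pair across it. The sequences are from GENCODE 29 transcripts on GRCh38. Both XBP1 sites lie in exon 4 on the minus strand (chr22:28796139-28796165 and chr22:28796113-28796139), and the BLOC1S1 site lies in exon 4 on the plus strand (chr12:55719579-55719605).
XBP1, first loop: tctgctgagtCCGCAGCactcagacta
XBP1, second loop: acgtgcacctCTGCAGCaggtgcaggc
BLOC1S1: caaagggcagCTGCAGTctgccccttc

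XBP1 mRNA (chromosome 22, 28794555 to 28800597, minus strand) was at 464, 494 and 486 CPM without ERN2 and at 221.5, 199 and 225.5 CPM with high ERN2. Every library with high ERN2 lay below every library without it, and the log2 fold change was -1.16 ± 0.12 (SE; adjusted p = 3.65e-05). These counts include spliced and unspliced transcripts and hold no measure of splicing. ERN1 was at 16.5, 17.5 and 13.6 CPM without ERN2 and at 6.15, 5.14 and 5.83 CPM with it, again with no overlap (log2 fold change -1.48 ± 0.20 (SE), adjusted p = 0.000205). BLOC1S1, a subunit of a lysosome-related organelle complex, was scarce, at 3.79, 5.39 and 4.73 CPM against 2.63, 1.34 and 1.03 CPM. The groups did not overlap, but the log2 fold change of -1.46 ± 0.35 (SE) missed the threshold of 0.01 (adjusted p = 0.0103), and with the trend on GC content removed it passed (adjusted p = 0.000629).

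**Figure D1:**
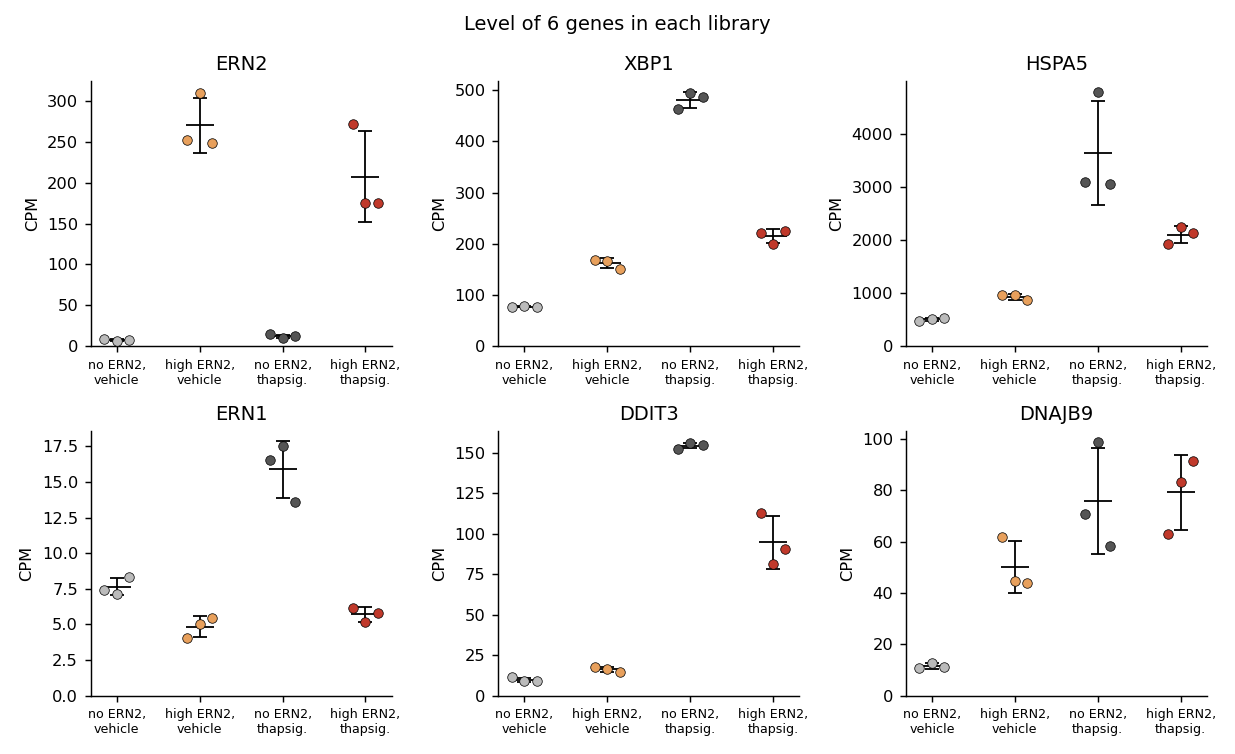
Level of ERN2, XBP1, HSPA5, ERN1, DDIT3 and DNAJB9 (CPM, vertical axis) in each library of 4 groups (horizontal axis), with 1 point per library, a bar at the mean of 3 and whiskers of 1 SD. Under thapsigargin XBP1 was at 464 to 494 CPM without ERN2 and 199 to 225.5 CPM with high ERN2, while DNAJB9 overlapped between the groups.

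Over the whole transcriptome the difference lay mostly on the low side. Of 14358 genes tested, 1512 (10.5%) passed an adjusted p of 0.01, of which 1292 (9.00%) were lower with high ERN2 and 220 (1.53%) were higher. Among the lower genes 936 fell by 2-fold or more and 128 by 4-fold or more, and among the higher genes 53 rose by 2-fold or more and 3 by 4-fold or more. The median log2 fold change was -1.22 over the lower genes, 0.80 over the higher genes and 0.04 over all genes tested. The libraries of the groups did not overlap for 36.5% of all genes tested, with high ERN2 above for 16.1% and below for 20.4%.

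The count of lower genes was steadier than the count of higher genes. With the trend on GC content and length removed, 1825 genes (12.7%) were lower and 915 (6.37%) higher, and 1272 of the 1292 and 188 of the 220 were among them. Without the first library of high ERN2, 1993 (13.7%) were lower and 1957 (13.5%) higher, so the share of calls that were lower went from 85.45% to 50.46%, and to 66.61% with the trend removed. The first library taken alone lay below the mean of the cells without ERN2 for 1292 of the 1292 genes called lower, with a median of -1.15, and above it for 220 of the 220 called higher, with a median of 0.56. That library entered the choice of these genes, so the signs are a description and no independent support. Genes called higher had a median GC content of 43.8% and a median transcript length of 2243 bases, genes called lower 54.2% and 3637 bases, and all genes tested 49.3% and 3131 bases. GC content thus moved with the direction of the calls, and its part in them is measured only by the corrected counts.

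**Figure D2:**
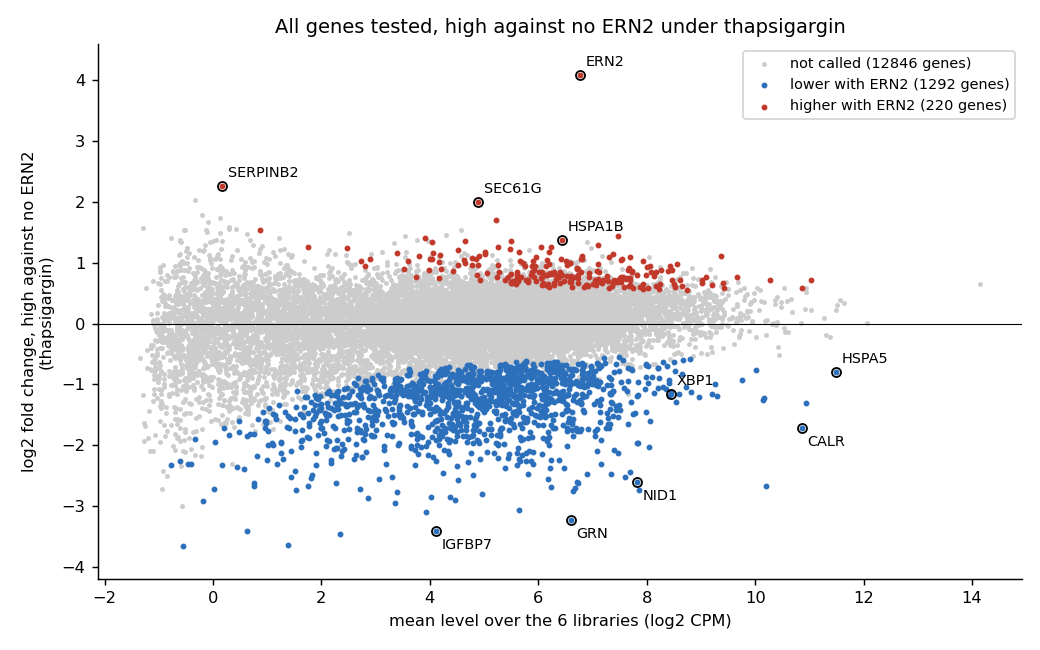
Mean level over the 6 libraries (log2 CPM, horizontal axis) against the log2 fold change between high and no ERN2 under thapsigargin (vertical axis), with 1 point per gene tested, lower genes in blue (1292), higher genes in red (220) and the others in grey. Of the lower genes 128 lie below -2, whereas the 3 higher genes past 2 are ERN2, SERPINB2 and SEC61G, and ELANE lies below the axis.

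The genes that fell were mostly genes of proteins with a hydrophobic stretch. Each protein was scanned for hydrophobic stretches, as a simple sign of a signal sequence or a membrane anchor (an amino-terminal stretch of 10 residues in the first 40, or further stretches of 19 residues after them). Of 1274 genes called lower with a known protein, 1134 (89.0%) had such a stretch, against 31.1% of all genes tested and 8.84% of genes called higher. Genes with both an amino-terminal and a further stretch fell most often, with 470 of 1173 lower, 1 higher and a median log2 fold change of -0.79. An amino-terminal stretch alone went with 358 of 1344 lower, 10 higher and a median of -0.41. Further stretches alone went with 306 of 1571 lower, 8 higher and a median of -0.29. Without any stretch 140 of 9072 were lower and 196 higher, with a median of 0.14. With the trend on GC content and length removed the numbers lower were 610, 457, 450 and 270 in the same order, and the numbers higher were 10, 39, 40 and 801. Without the first library of high ERN2 602, 464, 461 and 423 were lower and 23, 91, 97 and 1682 higher. The scan misses some signal sequences: GRN, described next, encodes a secreted protein and was placed among those without a stretch. Nor does a stretch show that a protein enters the ER.

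**Figure D3:**
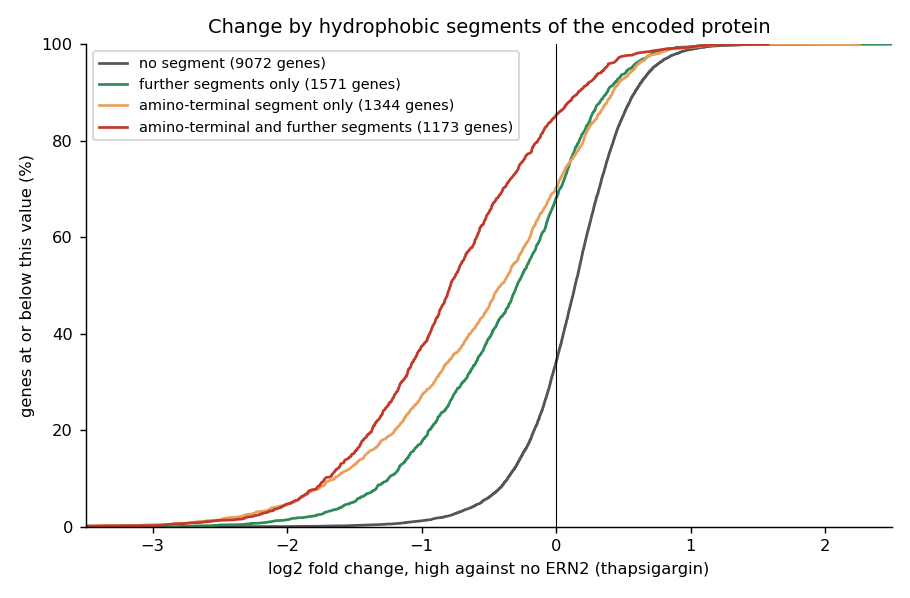
Cumulative share of genes (%, vertical axis) at or below each log2 fold change between high and no ERN2 under thapsigargin (horizontal axis), with 1 line for each of 4 classes of hydrophobic stretches in the encoded protein. The line of proteins with amino-terminal and further stretches lies farthest to the left (median -0.79), and that of proteins without any lies to the right of 0 (median 0.14).

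The steepest falls were in secreted and cell surface proteins. GRN (chromosome 17, 44345086 to 44353102, plus strand), the precursor of the secreted and lysosomal granulins, was at 176, 160.5 and 188 CPM without ERN2 and at 21.8, 16.5 and 17.6 CPM with high ERN2. Its groups lay far apart, at 9.38-fold lower with high ERN2 (log2 fold change -3.23 ± 0.16 (SE), adjusted p = 5.11e-07). FBLN1, an extracellular matrix glycoprotein, went from 94.2, 89.7 and 85.4 CPM to 11.4, 10.9 and 9.86 CPM (-3.07 ± 0.16). IGFBP7, which binds insulin-like growth factors, went from 28.7, 33.8 and 32.2 CPM to 4.42, 2.18 and 2.22 CPM (-3.41 ± 0.26). All of these were lower in each library with high ERN2 than in any without. The other genes with the lowest fold changes by the naming rule were LPPR3 (-3.65), DNER (-3.46, a Notch-binding protein), HTRA3 (-3.42) and HTRA1 (-2.95), both secreted proteases, IGFBP2 (-3.10), the integrin subunit ITGB5 (-2.91), CLSTN2 (-2.87) and GPC3 (-2.85, a proteoglycan at the cell surface). All had adjusted p-values of 7.44e-05 or less. At 10 ng/mL doxycycline with thapsigargin GRN was at 95.7, 89.4 and 58.9 CPM, between the groups compared.

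ELANE, which encodes neutrophil elastase, ranked first by the same rule but rests on few libraries. It had 323, 5807 and 25 reads in the libraries without ERN2 and 0, 1 and 0 with high ERN2 (adjusted p = 0.00242). Most of its reads were in the second library without ERN2, so no fold change is given.

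Families of the secretory pathway were lowered as groups. Their counts are read against the background of 9.00% of all genes lower and 1.53% higher. In basement membrane genes 12 of 20 were lower and 0 higher, with a median log2 fold change of -1.49. COL4A1, a chain of the network-forming collagen of basement membranes, was at 135, 133 and 120 CPM without ERN2 and at 22.1, 17.5 and 21.0 CPM with it (-2.69 ± 0.16 (SE), adjusted p = 7.64e-07). NID1, nidogen, which links laminin to collagen, went from 417, 400 and 347 CPM to 70.0, 56.8 and 66.0 CPM (-2.60 ± 0.15). Neither gene's groups overlapped, and all 20 genes of the list had a fold change below 0. LAMC1 (-2.45), NID2 (-2.08) and COL4A2 (-1.92) followed. Of the 6 IGF-binding proteins 4 were lower, with a median of -2.02. IGFBP3 (-0.84, adjusted p = 0.0890) and IGFBP4 (-1.61, adjusted p = 0.0176) did not pass.

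Integrins, the receptors for that matrix, were lower for 11 of 18 and higher for 0, with a median of -1.36 and all 18 below 0. ITGB1, the common β subunit, was at 290, 297 and 231 CPM without ERN2 and at 36.1, 47.4 and 64.8 CPM with high ERN2 (-2.47 ± 0.21 (SE), adjusted p = 8.59e-06). The gap between the groups was wide, and in low ERN2 cells with thapsigargin its level was 194, 146 and 69.3 CPM. The coding sequence of ITGB1 also holds a stem-loop of the kind shown for XBP1, with 5 paired bases, in exon 3 on the minus strand (chr10:32929833-32929859).
ITGB1: gatccaaccaCAGCAGTtggttttgcg

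Such loops were rare in coding sequences. They were found in 71 of 13160 tested genes (0.540%), in 12 of 1274 genes called lower (0.942%), in 0 of 215 called higher and in 59 of 11671 not called (0.506%), so most lower genes held none. Genes called lower had longer coding sequences, with a median of 1617 bases against 1449 over all tested and 654 over those called higher, and per megabase of coding sequence they held 4.61 loops, against 2.67 in genes not called and 2.86 over all tested. The 13 loops of the lower genes include both XBP1 sites. Median GC content was 54.2% in lower genes and 48.8% in genes not called. Among genes with any hydrophobic stretch the rate was 3.52 in lower genes (9 loops) and 2.25 in genes not called. It was 1.40 against 2.47 with an amino-terminal stretch alone, 4.57 against 3.24 with both kinds and 4.00 against 1.71 with further stretches alone. Without any stretch it was 15.2 (4 loops) against 2.82. A match is a description of the letters and not of a cut site.

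Receptor tyrosine kinases were lower for 24 of 39, with a median of -0.95, led by RET (-2.09) and EPHB2 (-1.63), an ephrin receptor. Lysosomal hydrolases, which are made at the ER before they are sorted, were lower for 29 of 40 (72.5%), with a median of -1.16. The sialidase NEU1 was at 120, 126 and 128 CPM without ERN2 and at 29.5, 18.6 and 24.1 CPM with it (-2.37 ± 0.18 (SE), adjusted p = 3.86e-06). PSAP, the precursor of the saposins, went from 287, 303 and 276 CPM to 86.8, 52.9 and 59.1 CPM (-2.13 ± 0.18). CTSB, cathepsin B, went from 89.9, 91.4 and 89.3 CPM to 19.6, 17.4 and 19.5 CPM (-2.26 ± 0.15). All 3 hydrolases were lower in each library with high ERN2 than in any without. Of Golgi glycosyltransferases, which build the sugar chains of secreted proteins, 23 of 48 were lower, with a median of -0.77, among them GALNT10 (-2.28) and MAN1C1 (-2.04).

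Machinery of the ER membrane changed unevenly. In the translocon, TRAP and oligosaccharyltransferase list 5 of 24 were lower (20.8%) and 1 higher, with a median of -0.32, and with the trend on GC content removed 10 were lower. The lower ones were RPN1, TUSC3, STT3A, RPN2 and DDOST, all parts of the enzyme that attaches N-linked glycans. RPN1 was at 291.5, 383.5 and 317 CPM without ERN2 and at 55.0, 51.2 and 66.7 CPM with high ERN2 (-2.53 ± 0.16 (SE), adjusted p = 1.39e-06). OST4, a very small subunit of the same enzyme, rose instead (0.65 ± 0.14, adjusted p = 0.00634). This list does not hold the translocon subunits SEC61G (2.00) and SEC61B (0.80). They are counted among the XBP1-regulated genes below, and both rose. Of the COPII and COPI coats, cytosolic proteins that bud vesicles from these membranes, 1 of 17 was lower (SEC16A, -0.63) and 0 higher, with a median of 0.35. With the trend on GC content and length removed 3 were higher (17.6%, against 6.37% of all genes) and 0 lower, and without the first library of high ERN2 6 were higher (35.3%, against 13.5%) and 1 lower.

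Sterol synthesis genes, most of whose enzymes span the ER membrane, were lower for 13 of 19, with a median of -0.91. DHCR7, a reductase at the end of cholesterol synthesis, was at 104, 107 and 131 CPM without ERN2 and at 35.4, 25.4 and 28.7 CPM with it (-1.93 ± 0.17 (SE), adjusted p = 1.01e-05). MVK (-0.99), MVD (-0.91) and FDPS (-0.69), enzymes of the same pathway that are soluble, were also among the lower genes. INSIG1, the sterol-dependent ER anchor, had a log2 fold change of -1.73.

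The mRNAs commonly listed as RIDD substrates of IRE1α in other cells were lower for 8 of 14 tested (57.1%) and higher for 0, with a median of -1.24. ERGIC3, a cargo receptor between ER and Golgi, was at 128, 129 and 159 CPM without ERN2 and at 33.0, 26.8 and 27.5 CPM with high ERN2 (-2.25 ± 0.16 (SE), adjusted p = 2.61e-06). TAPBP, which loads peptides on MHC class I, went from 92.3, 85.6 and 88.0 CPM to 28.4, 26.4 and 22.5 CPM (-1.78 ± 0.16). Neither overlapped between the groups. COL6A1 (-1.55), TGOLN2 (-1.43), CD59 (-1.39), SCARA3 (-1.35), MFAP2 (-1.12) and SPARC (-0.70) were the other 6 that fell. Of the rest, PMP22 (-0.52, adjusted p = 0.0454), HGSNAT (-0.47), PER1 (-0.42) and RNF213 (-0.38) had smaller fold changes and did not pass. BMP4 (-0.57) did not pass either, and BMP4 and PER1 overlapped between the groups.

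The targets of the UPR are described arm by arm, and no test compares the arms. Genes of the ATF6 arm, ER chaperones and quality control factors, were lower for 8 of 12 (66.7%) and higher for 0, with a median of -0.97, and all 12 had a fold change below 0. ATF6 acts through the ER stress response element (ERSE), searched here as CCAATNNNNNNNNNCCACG on both strands of the 300 bases from 250 before to 50 after the start of each gene (RefSeq, GRCh38.p14). The sites of the ATF6 genes and of XBP1 are shown because they hold the classical element. The CCAAT and CCACG ends are in capitals, and each site is read along its own strand. They lie at chr9:125241391-125241409 (minus) for HSPA5, chr12:103930216-103930234 (plus) and chr12:103930321-103930339 (minus) for HSP90B1, chr19:12938384-12938402 (minus) for CALR, chr22:49918554-49918572 (minus) for CRELD2, and chr22:28800603-28800621 (minus) for XBP1.
HSPA5: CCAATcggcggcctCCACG
HSP90B1, first: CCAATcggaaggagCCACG
HSP90B1, second: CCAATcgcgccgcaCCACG
CALR: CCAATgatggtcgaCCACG
CRELD2: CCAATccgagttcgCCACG
XBP1: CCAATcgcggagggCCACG

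The element was in 4 of the 11 ATF6 genes with a promoter in the table (36.4%), in 15 of 10482 tested genes (0.143%) and in 27 of all 35116 promoters (0.0769%). It was also in 3 of 23 XBP1-regulated genes (13.0%), namely FICD, PDIA6 and SERP1, whose sites are not printed here. Of 961 genes called lower with a promoter 7 held it (0.728%), and 0 of 174 called higher. HSPA5 (BiP, the main ER chaperone of the HSP70 family; chromosome 9, 125234853 to 125241330, minus strand) was at 3096, 4773 and 3046 CPM without ERN2 and at 1922, 2244 and 2131 CPM with high ERN2. The groups did not overlap, and the log2 fold change was -0.80 ± 0.18 (SE, adjusted p = 0.00688). CALR, calreticulin, fell further, from 2514, 3164 and 2861 CPM to 821, 818.5 and 956.5 CPM (-1.72 ± 0.13, adjusted p = 4.92e-06). HYOU1, a large ER chaperone, went from 1341, 2036 and 1431 CPM to 665, 670.0 and 678 CPM (-1.26 ± 0.16). OS9 (-1.42), SEL1L (-1.18), CRELD2 (-1.03), SDF2L1 (-1.01) and PDIA4 (-0.93) also fell. HSP90B1, which holds 2 elements, overlapped between the groups at 2308 to 3580 CPM without ERN2 and 1804 to 2867 CPM with it (-0.23 ± 0.20, adjusted p = 0.442). MANF (-0.27), HERPUD1 (-0.39, adjusted p = 0.0586) and DERL3 (-0.58, adjusted p = 0.0302) did not pass either.

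Genes that XBP1s regulates were split. Of 25, 3 were lower (12.0%) and 2 higher (8.00%), with a median of -0.25, and 6 were lower with the trend on GC content removed and 7 without the first library of high ERN2. DNAJC3, an ER co-chaperone, went from 306, 406 and 232 CPM to 97.1, 116 and 126.5 CPM (-1.48 ± 0.20 (SE), adjusted p = 0.000234). DNAJB11 (-0.87) and PDIA6 (-0.79) also fell. SEC61G and SEC61B, small subunits of the ER translocation channel, rose. SEC61G was at 12.1, 14.0 and 9.34 CPM without ERN2 and at 22.0, 70.8 and 49.6 CPM with it (2.00 ± 0.34, adjusted p = 0.00131), and SEC61B was at 40.5, 61.4 and 52.5 CPM against 93.9, 90.9 and 84.2 CPM (0.80 ± 0.17, adjusted p = 0.00548). The first library with high ERN2 held much less SEC61G than the other two. DNAJB9, a co-chaperone often used as a readout of XBP1s, overlapped between the groups at 58.2 to 98.7 CPM and 63.1 to 91.4 CPM (0.05 ± 0.21, adjusted p = 0.883). BHLHA15 (MIST1), a transcription factor of secretory cells, was at 1.68, 7.31 and 2.45 CPM against 6.20, 5.63 and 3.77 CPM, which also overlapped (adjusted p = 0.518).

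Of 34 tested genes of the PERK arm 5 were lower (14.7%) and 0 higher, with a median of -0.25. After removal of the trend on GC content 8 were lower and 1 higher, and without the first library of high ERN2 13 were lower (38.2%, against 13.7% of all genes) and 1 higher. The 5 were the amino acid transporters SLC7A5 (-1.97), SLC7A1 (-1.12) and SLC3A2 (-0.88), the lipoprotein receptor VLDLR (-1.29) and the secreted hormone STC2 (-0.96), all of them membrane or secreted proteins. ATF4 itself overlapped between the groups, at 667 to 877.5 CPM without ERN2 and 615 to 879 CPM with it (-0.11 ± 0.16 (SE), adjusted p = 0.666). DDIT3, the transcription factor CHOP, was at 153, 156 and 155 CPM without ERN2 and at 113, 81.2 and 90.5 CPM with it. It did not overlap (-0.71 ± 0.15, adjusted p = 0.00506). DDIT3 encodes a protein without a hydrophobic stretch and was also called lower. It is counted among the sensors and transducers below, not among the 34. Of 12 cell death genes of the UPR 1 was lower, a share of 8.33% that lies near the background, and 0 were higher, with a median of 0.05. That gene was TNFRSF10B (-0.92), the death receptor DR5. PMAIP1 (NOXA, 0.47), BCL2L11 (BIM, 0.34), MCL1 (0.36) and CASP4 (0.53) lay higher in each library with high ERN2 than in any without. These 4 of 12, against 16.1% of all genes, did not pass. Without the first library of high ERN2 2 of them, PMAIP1 and MCL1, passed. With the trend on GC content and length removed 0 of the 12 were higher, with PMAIP1 at 0.08 (adjusted p = 0.676) and MCL1 at 0.31 (adjusted p = 0.0271). The other 7, among them BBC3, BAX and BCL2, overlapped between the groups. Among 16 sensors and transducers of the UPR, 5 were lower (31.25%) and 0 higher, namely ERN1, XBP1, DDIT3, CREB3 (-1.33) and MBTPS1 (-1.11), the protease that activates ATF6.

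**Figure D4:**
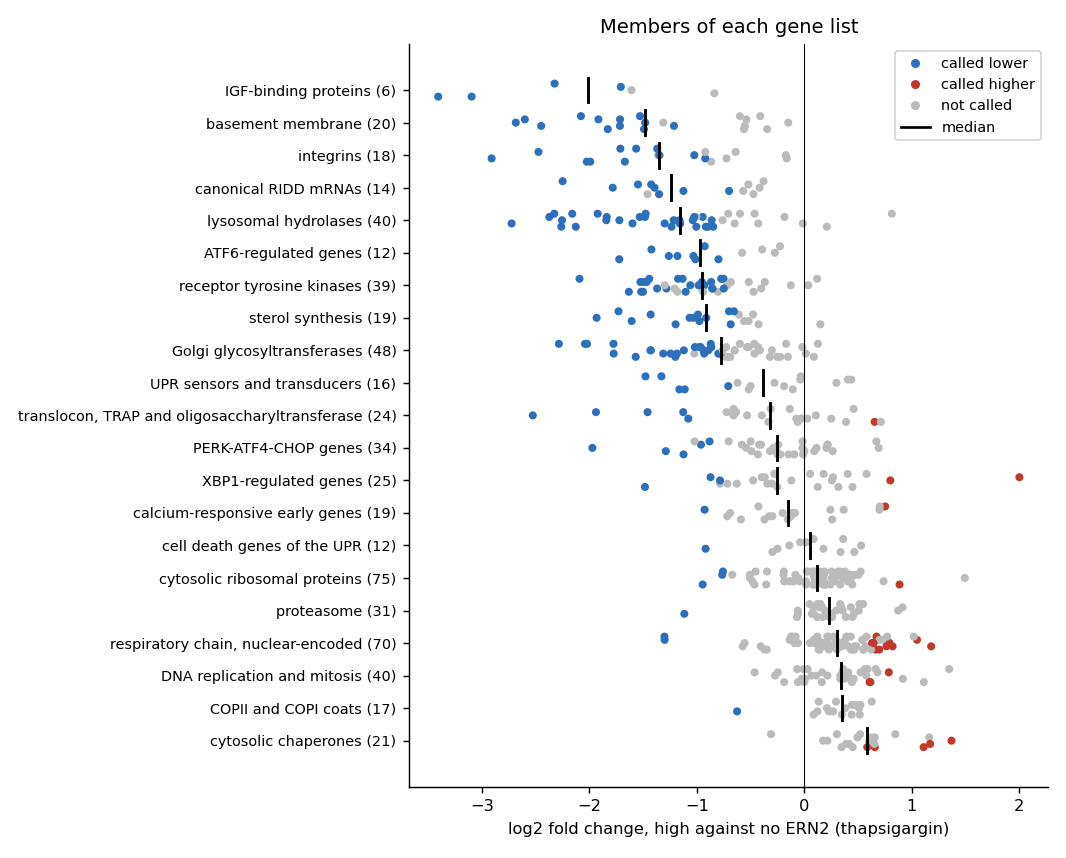
Log2 fold change between high and no ERN2 under thapsigargin (horizontal axis) of every tested member of each gene list (vertical axis), with 1 point per gene, genes past an adjusted p of 0.01 in blue (lower) or red (higher) and the median of each list as a bar. The medians run from -2.02 for IGF-binding proteins to 0.59 for cytosolic chaperones.

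A further list was taken from libraries outside the comparison. In cells at 10 ng/mL doxycycline, thapsigargin raised 112 of 14607 genes by more than 2-fold (0.767%) against vehicle. Of these 112, 24 were lower with high ERN2 (21.4%) and 0 higher, their median was -0.40, and 100 had a fold change below 0. With the trend on GC content and length removed 40 were lower. By protein class, 7 of 15 with an amino-terminal stretch alone were lower (median -0.80) and 2 of 8 with both kinds (-0.47). With further stretches alone 4 of 12 were lower (-0.43), and without any 6 of 61 (9.84%, median -0.36). Over all genes tested 26.6%, 40.1%, 19.5% and 1.54% of these classes were lower, in the same order. All but the class with both kinds lay above these shares. After removal of the trend 8, 5, 6 and 13 were lower. All 4 shares then lay above those of all genes tested (34.0%, 52.0%, 28.6% and 2.98%). RCAN1, a calcineurin regulator that responds to calcium, went from 444, 414 and 480 CPM to 241, 208 and 255 CPM with high ERN2 (-0.93 ± 0.13 (SE), adjusted p = 0.000273). Of 19 calcium-responsive early genes it was the 1 lower gene (5.26%, against 9.00% of all genes tested). EGR1 (0.75, adjusted p = 0.00890) was the 1 higher gene (5.26%, against 1.53%). After removal of the trend 3 were higher (15.8%, against 6.37%) and 1 lower.

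The same dose of doxycycline was also compared in vehicle-treated cells, in 6 libraries that share none with the thapsigargin-treated groups. There 1203 of 14444 genes (8.33%) were called, 1082 lower (7.49%) and 121 higher (0.838%). The calls shared between the treatments were 825 lower genes, which are 63.85% of those lower under thapsigargin and 76.25% of those lower under vehicle. Of 1290 genes lower under thapsigargin and tested under vehicle, 1251 had a fold change below 0 there, with a median of -0.84. GRN had a log2 fold change of -2.65 under vehicle, COL4A1 of -2.92, ITGB1 of -2.85 and ERGIC3 of -2.11, beside -3.23, -2.69, -2.47 and -2.25 under thapsigargin. The lysosomal list was lower for 27 genes under vehicle (median -0.81) and the basement membrane list for 17 (median -1.26). Of the higher genes 8 were shared, which are 3.64% of those higher under thapsigargin and 6.61% of those higher under vehicle. Of the 220 higher under thapsigargin 138 had a fold change above 0 under vehicle, with a median of 0.06. These 8 were ERN2, SEC61B, SEC61G, SND1, ANXA1, MYOF, EGR1 and RPL36AL, of which SND1, a nuclease of the Tudor family, had a log2 fold change of 0.95 under thapsigargin and 1.16 under vehicle.

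Some targets of the UPR changed side between the treatments. DDIT3, HSPA5, PDIA4, SLC3A2 and XBP1 were lower with high ERN2 under thapsigargin and higher under vehicle, and 0 genes were the other way round. XBP1 averaged 76.8 CPM without ERN2 and 162 CPM with high ERN2 in vehicle-treated cells (1.03), against the fall of 1.16 on the log2 scale under thapsigargin. HSPA5 averaged 503 and 928.5 CPM in vehicle-treated cells (0.84). DNAJB9, which overlapped between the groups under thapsigargin, averaged 11.6 and 50.2 CPM in vehicle-treated cells (2.07). Of the 25 XBP1-regulated genes 12 were higher and 0 lower under vehicle (median 0.56), and of the 12 ATF6-regulated genes 5 were higher and 2 lower (median 0.23). Other targets were lower in both treatments, among them CALR (-1.45 under vehicle), OS9 (-1.05) and the transporter SLC7A5 (-1.55), and SEC61B and SEC61G were higher in both. The median of the 112 thapsigargin-raised genes was 0.22 under vehicle, with 20 higher and 3 lower.

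The difference between the treatments was tested as an interaction over 12 libraries. It passed for 6 of 14768 genes (0.0406%), of which 5 (0.0339%) were more negative and 1 (0.00677%) more positive under thapsigargin, while 3651 had an unadjusted p under 0.05 and DESeq2 called 341. Without the first library of high ERN2 under thapsigargin 1286 passed, 865 more positive and 421 more negative, so the balance of directions rests on that library. The 5 were XBP1 (-2.14, adjusted p = 1.20e-06), FICD (-2.16, adjusted p = 0.00204), HERPUD1 (-1.21, adjusted p = 0.00741), PDIA4 (-1.40, adjusted p = 0.00898) and HSPA5 (-1.59, adjusted p = 0.00898). All are targets or effectors of the UPR, and FICD encodes an enzyme that modifies BiP. MLLT11 (1.12) and PIN4 (1.07) had the next smallest p on the positive side and missed the threshold (adjusted p = 0.0101 for both). With the trend on GC content removed 216 genes (1.46%) passed, 136 (0.921%) more negative and 80 (0.542%) more positive, among them 10 of the 25 XBP1-regulated and 7 of the 12 ATF6-regulated genes, which were all more negative. The median of the interaction was -0.55 for the XBP1 list, -1.11 for the ATF6 list and -0.07 for the RIDD list.

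**Figure D5:**
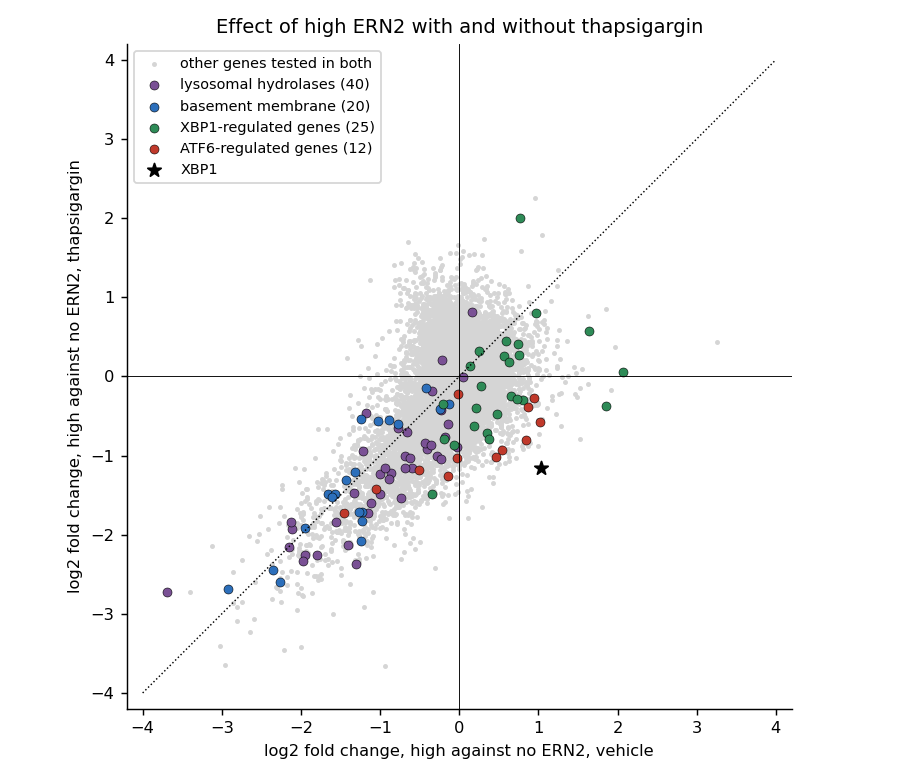
Log2 fold change between high and no ERN2 under vehicle (horizontal axis) against the same under thapsigargin (vertical axis), with 1 point per gene tested in both, 4 lists in colour, XBP1 as a star and a dotted line of equal change. Most lysosomal and basement membrane genes lie below 0 on both axes (medians -0.81 and -1.26 under vehicle), whereas XBP1 and ATF6 targets have medians above 0 under vehicle (0.56 and 0.23) and below 0 under thapsigargin (-0.25 and -0.97). ERN2 lies beyond the axis.

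The 220 genes that were higher with high ERN2 held few secretory genes and several cytosolic chaperones. Of 21 cytosolic chaperones 5 were higher (23.8%) and 0 lower, with a median of 0.59. The number higher was 12 with the trend on GC content and length removed (57.1%, against 6.37% of all genes). It was 15 without the first library of high ERN2 (71.4%, against 13.5%). Under vehicle 0 were called and the median was 0.05. The interaction passed for 0 of the 21, and for 3 with the trend removed. HSPA8, the constitutive HSP70, was at 434, 329 and 497 CPM without ERN2 and at 835, 975 and 906 CPM with high ERN2 (1.11 ± 0.15 (SE), adjusted p = 0.000273). HSPA1B, the inducible HSP70, was at 46.9, 39.5 and 58.4 CPM against 131, 119 and 123.5 CPM (1.37 ± 0.16, adjusted p = 7.33e-05), and HSPA1A was at 29.7, 21.9 and 40.4 CPM against 70.4, 71.8 and 64.0 CPM (1.17). HSPA1L, the neighbouring member of the same family, is not in the list of 21. It was scarce at 1.14, 0.75 and 0.91 CPM against 3.32, 2.75 and 2.07 CPM (1.53, adjusted p = 0.00758). The groups did not overlap for these genes. HSPA1A and HSPA1B are near-identical copies, so the split of their reads is uncertain. DNAJA1 (0.66) and HSP90AB1 (0.58) were the others of the 5.

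In vehicle-treated cells HSPA1B was higher than in either thapsigargin group, at a mean of 217 CPM without ERN2 and 275 CPM with high ERN2. Most of the genes called higher were likewise low in thapsigargin-treated cells without ERN2. Of the 220, 214 were lower in thapsigargin-treated cells without ERN2 than in vehicle-treated cells without ERN2, with a median log2 ratio of -0.60, whereas 29 were lower in the thapsigargin-treated cells with high ERN2, with a median of 0.24. Over 13521 tested genes with at least 1 CPM in untreated cells these medians were -0.02 and 0.10. Among those 13521 genes 7102 and 5459 were below. Both thapsigargin groups entered the choice of the 220, so their positions are a description. The 3 libraries at 10 ng/mL doxycycline with thapsigargin did not enter it, and they were also below the vehicle-treated cells without ERN2 for 207 of the 220, with a median of -0.38, beside 6769 of the 13521 and a median of -0.001. SUMO2, a ubiquitin-like modifier and the 1 gene whose interaction was positive (1.05, adjusted p = 0.00898), was at 112, 122 and 127 CPM without ERN2 and at 224, 264 and 259.5 CPM with it under thapsigargin, and at means of 231 and 247 CPM under vehicle. COX7B, a small subunit of cytochrome oxidase, was at 44.1, 52.8 and 38.2 CPM against 90.7, 113 and 103 CPM (1.18 ± 0.17 (SE), adjusted p = 0.000419), with means of 100.0 and 116 CPM under vehicle. In both genes the low group was the thapsigargin-treated cells without ERN2.

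Of 70 nuclear-encoded subunits of the respiratory chain 11 were higher (15.7%) and 2 lower, with a median of 0.31, led by COX7B and NDUFB3 (1.05). The 2 lower ones were NDUFS8 (-1.302) and NDUFS7. Under vehicle 1 was higher and 0 lower, with a median of 0.19. The interaction passed for 0 of the 70, and for 1 with the trend removed. In the main comparison with the trend on GC content and length removed 11 were higher (15.7%, against 6.37% of all genes) and 5 lower (7.14%, against 12.7%). Without the first library of high ERN2 20 were higher (28.6%, against 13.5%) and 4 lower (5.71%, against 13.7%). Of 40 replication and mitosis genes 3 were higher (7.50%) and 0 lower, namely CCNB1 (0.61), AURKA (0.61) and PCNA (0.79), with a median of 0.35. The number higher was 12 with the trend on GC content removed (30.0%, against 6.37% of all genes). It was 17 without the first library of high ERN2 (42.5%, against 13.5%). Ribosomal proteins had 1 higher (RPL24, 0.89) and 3 lower of 75, with a median of 0.12, and the proteasome 0 higher and 1 lower of 31 (PSMD3, -1.12). These shares lie at or below the background, but that of the proteasome depends on the first library of high ERN2. Without that library 8 proteasome genes were higher (25.8%, against 13.5% of all genes). Of the ribosomal protein genes 10 were then higher (13.3%) and 8 lower (10.7%, against 13.7% of all genes), still at or below the background. After removal of the trend on GC content 2 proteasome genes were higher (6.45%, against 6.37% of all genes). Of the ribosomal protein genes 4 were then higher (5.33%) and 9 lower (12.0%, against 12.7%). Many ribosomal protein genes have processed copies in the genome, so their counts are uncertain.

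Several of the genes with the highest fold changes were set by the second and the last library of high ERN2. PFDN4, a prefoldin subunit, was at 18.6, 19.8 and 14.0 CPM without ERN2 and at 20.1, 68.7 and 82.8 CPM with it (1.70 ± 0.39 (SE), adjusted p = 0.00778). ASPM, a spindle pole protein, was at 111, 100.3 and 72.8 CPM against 130, 268 and 375 CPM. ZNF680, ETAA1 and SUB1 had the same shape, and USMG5, a small subunit of the ATP synthase, was at 26.6, 28.4 and 20.6 CPM against 40.8, 81.3 and 73.7 CPM (1.36). In PFDN4, ASPM, ZNF680, ETAA1, SUB1 and USMG5 the first library with high ERN2 lay nearer to those without ERN2 than to the other two. In contrast, TRIB1, a pseudokinase, was at 9.75, 8.75 and 9.34 CPM against 19.99, 26.1 and 24.5 CPM (1.34 ± 0.18, adjusted p = 0.000229), and ANXA1, a calcium-dependent phospholipid-binding protein, was at 232, 275 and 252.5 CPM against 493, 508 and 502.5 CPM (0.98 ± 0.13, adjusted p = 0.000166). In these the 3 libraries with high ERN2 lay close together. SERPINB2, a protease inhibitor, had the highest fold change after ERN2 by the naming rule (2.26 ± 0.42, adjusted p = 0.00231) and rests on 6, 7 and 8 reads against 44, 31 and 24.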

How the data were processed

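The samples were grouped by their titles and treatment labels. KAPA stranded mRNA libraries were aligned by the authors with STAR to hg38, per the submitters' processing notes, which also name DESeq2. Versions, annotation and strand setting are not given in the sources used here. The deposited values are raw counts of reads per gene symbol, without normalization. Of 25435 rows, 28 carry dates in place of symbols.

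Genes kept by filterByExpr (minimum count 10) entered edgeR's quasi-likelihood test (edgeR 4.0.16, R 4.3.3, TMM factors) on the 6 libraries compared, and a Benjamini-Hochberg adjusted p under 0.01 was called. An SE is the log2 fold change over the square root of F. An exact permutation of 3 against 3 cannot reach a two-sided p below 0.10. Replicates differed by more than sampling noise and all were counted. With edgeR's fits checked on simulated data, the alternatives were RLE factors, library totals, DESeq2 1.42.0, no filter, a fit of all 6 groups, a replicate block, a GC and length trend (lowess span 0.3), an adjusted p of 0.05, and each library left out. Fits of the trend for vehicle and the interaction or with a library left out, and of the first high ERN2 library alone, were chosen after seeing the data. Same-numbered libraries correlated at -0.14, 0.16 and -0.28 and share only a number.

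Genes named were ERN2, ERN1, XBP1, BHLHA15, HSPA5, DNAJB9, ATF4, DDIT3 and BLOC1S1, the 12 highest and 12 lowest separated calls with a mean of at least 1 CPM, the 2 highest and 2 lowest calls of each list (all members of short lists) and the top interaction genes. Other members of lists, and shared calls, were named after their values were seen. The comparison and the lists were chosen with earlier results of these data known. GC content, positions and proteins came from GENCODE 29, matched by symbol for 23536 of 25433, and promoters from RefSeq. Hydrophobic stretches needed a mean Kyte-Doolittle value of 2.0 over 10 residues or 1.8 over 19. Figures were drawn with matplotlib 3.10.9.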

Additional observations from a re-analysis of the deposited data

Results flagged for a closer look

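The effect of high ERN2 differed between thapsigargin and vehicle, by the interaction in edgeR's quasi-likelihood test, for 6 genes. XBP1 had a difference of -2.14 and FICD of -2.16 (log2 scale), and both passed in 19 of 19 alternatives, with ranges of -2.31 to -2.10 and -2.34 to -2.02. HSPA5 (-1.59), PDIA4 (-1.40) and HERPUD1 (-1.21) passed in 10 of 19 each, and the calls were lost with the replicate block and in 8 of 12 fits that left out a library, where the highest adjusted p was 0.0342, 0.0451 and 0.0342. SUMO2 (1.05) passed in 7 of 19 and in 1 of 12 of the fits without a library. The sign held in all of them for these 6 genes.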

How the results depend on the processing

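Of 1512 calls under thapsigargin the counts were 2312 with DESeq2, 2641 with all 6 groups in the fit, 2740 with the GC and length trend removed and 3018 at an adjusted p of 0.05. Leaving out 1 library gave 763 (second with high ERN2) to 3950 (first with high ERN2), with 875 and 964 without the first or second library lacking ERN2, and the range was 1713 to 3527 with the trend also removed. Of 1203 calls under vehicle the count was 750 with the replicate block, 2206 with the trend removed and 2063 at 0.05. Of 6 interaction calls it was 14 with RLE factors, 20 with library totals, 341 with DESeq2, 86 with no filter, 35 with all groups, 3 with the replicate block, 216 with the trend removed, 149 at 0.05, and 2 to 1286 without 1 library. It was 2 without any of the 6 vehicle libraries or the second or last library of high ERN2 under thapsigargin, 10 without the last one lacking ERN2, and 1286 without the first of high ERN2. The cause was not tested. With the replicate block the calls under thapsigargin were 1390, and pairing by number was not borne out by the libraries. The calls of DESeq2 held 1288 of the 1292 lower and 219 of the 220 higher genes. Replicates differed well beyond counting error, so their spread and not the depth set the precision of most values.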

Other observations

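Genes that thapsigargin lowered were also compared. In cells at 10 ng/mL doxycycline it lowered 24 of 14607 genes by more than 2-fold (0.164%), libraries that do not enter the comparison of high and no ERN2. With high ERN2 10 of these 24 were lower under thapsigargin (41.7%, against 9.00% of all genes tested) and 3 higher (12.5%, against 1.53%). Their median log2 fold change was -0.61. COL4A1 (-2.69) and HSPA1B (1.37) were the lowest and the highest of them. Under vehicle 14 of the 24 were lower (58.3%, against 7.49% of all genes tested) and 0 higher (against 0.838%).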
